A study of Mus musculus with 2 samples.

Results

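The circadian clock genes examined here are Per1, Per2, Per3, Cry1, Cry2, Clock, Arntl, Nr1d1, Nr1d2 and Dbp, and their members in the data are the peaks of Aiolos binding that the authors assigned to these symbols. Of the 10 genes, 2 had an assigned peak, Per1 with 4 and Nr1d1 with 1, which made 5 of the 1404 peaks of the list. The set was chosen by the number of peaks assigned to Per1, one of the highest in the list, together with the other genes of its pathway, so its peak number is a description and not a test. Aiolos, encoded by Ikzf3, is a zinc finger transcription factor of the Ikaros family, and it was mapped by CUT&RUN, in which an antibody brings a nuclease to the protein and the DNA released around it is sequenced. The cells were mouse natural killer (NK) cells from spleen, cultured with interleukin-15 at 50 ng/ml until each sample had 500000 cells or more. The first group was the library with the Aiolos antibody and the second the library that had no primary antibody, with 1 library each. The labels name no strain, genotype, age or time of collection, and the expansion in culture was shared by both libraries.

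The circadian clock is a transcription loop that runs in most cells of the body. CLOCK and BMAL1 (the product of Arntl) pair on E-box elements and activate the Per and Cry genes, whose proteins return to the nucleus and repress the pair. A further loop joins REV-ERB alpha and beta, encoded by Nr1d1 and Nr1d2, which repress Arntl, to the ROR receptors that activate it, and Dbp carries the rhythm to output genes through D-box elements. Per1 is also known as a gene that responds to outside signals through cAMP response elements.

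The Per1 promoters are shown first because its peaks lay at their starts. The RefSeq promoter table of GRCm38.p6, the assembly of mm10, held 13 windows for 9 of the 10 genes, each of 300 bases, 250 before a transcript start and 50 from the start on. Per2 was not matched. Both Per1 windows, on the plus strand, ran into a peak at their downstream end, by 56 bases in the first and 59 bases in the second. Capitals mark the bases that lay under a peak.
Per1, chr11:69098699-69098998, plus strand: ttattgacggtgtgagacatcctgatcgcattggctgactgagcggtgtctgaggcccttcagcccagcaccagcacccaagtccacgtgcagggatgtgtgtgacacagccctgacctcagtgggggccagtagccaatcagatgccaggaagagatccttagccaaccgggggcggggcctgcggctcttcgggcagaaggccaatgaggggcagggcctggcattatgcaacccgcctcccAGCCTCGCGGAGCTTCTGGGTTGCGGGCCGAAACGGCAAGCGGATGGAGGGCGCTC
Per1, chr11:69099902-69100201, plus strand: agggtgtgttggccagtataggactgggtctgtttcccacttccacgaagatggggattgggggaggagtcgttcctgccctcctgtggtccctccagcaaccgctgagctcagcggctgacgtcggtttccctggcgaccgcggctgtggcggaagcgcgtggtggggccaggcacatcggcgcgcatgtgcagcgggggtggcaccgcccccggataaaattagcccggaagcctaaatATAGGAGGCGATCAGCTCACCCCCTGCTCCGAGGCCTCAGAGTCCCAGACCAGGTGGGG
The bases under the peaks were those at and just after the start. The rest of both windows lay outside any peak, including the E-box and the other motifs given below.

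All 4 Per1 peaks were promoter peaks, with their centre within 1000 bp of the annotated start they were assigned to. They were assigned to 3 alternative transcript starts of the gene on chromosome 11. The fold enrichment, the ratio of tags at the peak summit to the local background, each with 1 tag added, is the authors' value throughout. Each interval comes from the exact 95% Poisson limits of the summit tags, with the local background held fixed. It covers the counting error of those tags only, since there was 1 library per group and no replicate error. Counting error of the background is left out, so the intervals are too narrow for the fold. The furthest upstream peak, chr11:69094719-69095375, spanned the first start, at 69095217, with its summit 246 bp upstream of it. It had a fold of 8.05 (4.12 to 14.6) from 9 tags. It was 657 bp wide, wider than 94.3% of all peaks, whose median width was 265.5 bp.

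Around the second start, at 69098948, there were 2 peaks. The upstream one, chr11:69098296-69098599, had its summit 431 bp upstream and a fold of 4.98 (2.37 to 9.60) from 7 tags. The other, chr11:69098943-69099153, covered the start with its summit 95 bp downstream, and had a fold of 7.61 (4.39 to 12.4) from 14 tags. Between these peaks lay 343 bp without a called peak, and that stretch held the E-box of the first window. The last peak, chr11:69100143-69100358, covered the third start, at 69100152, with its summit 80 bp downstream and a fold of 8.05 (4.12 to 14.6) from 9 tags. Each of these 3 starts was covered by a peak, and the second had an additional one upstream. The 3 starts are those that the peaks were assigned to, so their coverage follows in part from the assignment. Starts of Per1 without an assigned peak were not looked for.

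**Figure D1:**
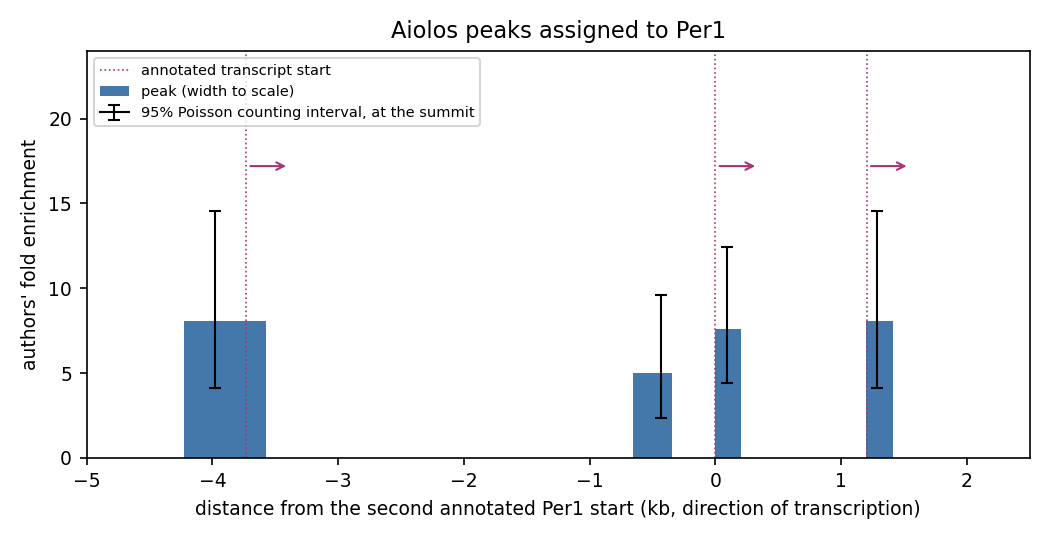
The 4 Aiolos peaks assigned to Per1, drawn to scale against the distance in kb from the second annotated start, with the authors' fold enrichment on the vertical axis. Black bars are 95% Poisson counting intervals at the summit. Dotted lines with arrows are the 3 annotated starts that the peaks were assigned to. Each of these starts is covered by a peak, and the 4 intervals overlap.

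The 4 peaks lay in 5640 bp from first to last edge, and covered 24.6% of that span; the gene table gives Per1 a length of 14858 bp. From the first start to the second were 3731 bp and from the second to the third 1204 bp. The summits were 3546, 526 and 1189 bp apart, so the 3 downstream peaks formed a group and the first stood alone. The remaining 9607 bp of the gene past the end of the last peak held no peak. The next gene upstream is Vamp2, which encodes a vesicle fusion protein, and its end was 2337 bp before the first peak. Taking the gene of the gene table nearest to each summit left all 4 peaks with Per1.

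In strength the Per1 peaks were not resolved from each other, since all 4 intervals overlapped. They ranged from 4.98-fold to 8.05-fold with a median of 7.83, against a median of 6.44 and quartiles of 5.08 and 8.05 over all 1404 peaks. Of the 4, 3 were above the median fold of the list, and the upstream peak of the second start was the exception. The order also depended on the measure. By fold the first and last peaks led, tied at rank 345 with identical values that 22 peaks of the list shared. By tags the peak over the second start led, at rank 153, where 43 peaks were tied. Its local background was 0.970 tags, 4 times the 0.242 tags at the first and last peaks, and the background at the weakest peak was 0.606 tags. The -log10 of the authors' q was 8.18 at the first and last peaks, 8.10 at the peak over the second start and 2.76 at the weakest, where the list's lowest value was 1.31.

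**Figure D2:**
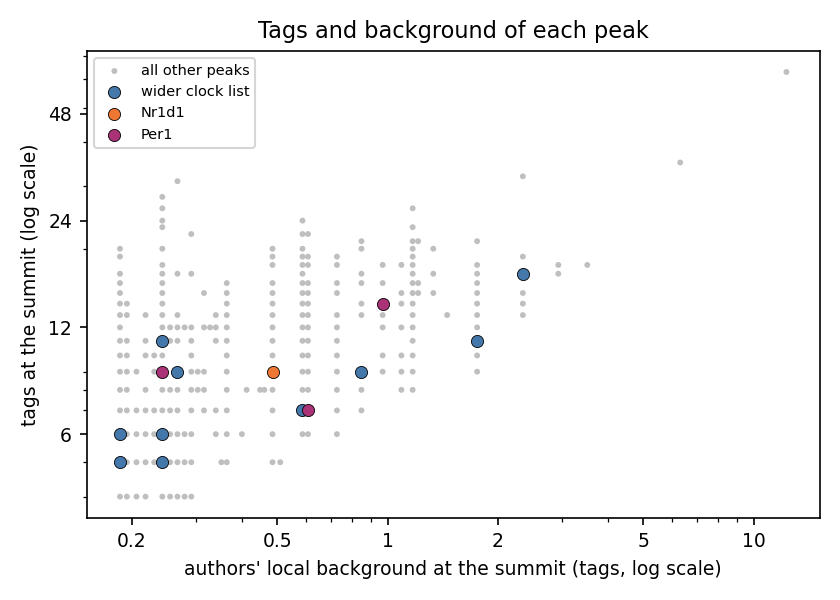
Tags at the summit against the authors' local background in tags, both on log scales, with 1 point for each combination found among the 1404 peaks. The Per1 peaks are seen at 7, 9 and 14 tags, with the pair at 9 tags on the same point, and all clock peaks lie within the cloud of the other peaks.

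Few genes matched Per1 in number of peaks. Of the 1276 genes named by the authors, 1173 had 1 peak, 85 had 2, 12 had 3, 5 had 4 and 1 had 5. Of 21900 genes that the gene table lists as protein-coding, 0.0274% had 4 or more, and that number chose Per1, so nothing is read from it. The others described here are Tex14, a gene of germ cell bridges, with 5 peaks, and Klrb1b, an NK lectin-like receptor, Fosb, an AP-1 subunit gene, and Dad1, a subunit of the oligosaccharyltransferase, with 4 each. Likeness here is the number of assigned peaks in 1 library and no more.

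The arrangement of peaks differed among these 5 genes. Per1 had all 4 of its peaks at promoters and 3 transcript starts. Tex14 and Fosb had 1 promoter peak each, and Klrb1b and Dad1 had 0. The Per1 span of 5.64 kb was the shortest, against 7.47 kb at Klrb1b, 19.5 kb at Fosb, 49.7 kb at Tex14 and 166 kb at Dad1. These are spans of assigned peaks, and at Dad1 the first summit lay 161 kb from the next. Of the 5 genes, the nearest gene to each peak is given here for Per1 alone. In the whole list no other run of 4 consecutive peaks fitted into the Per1 span. Run length and span were both taken from Per1, so nothing is read from this. The strongest peak of Per1 was weaker than that of Klrb1b at 19.3-fold and of Fosb at 13.5-fold. The Per1 peaks were also more even than theirs, with 1.62 times between strongest and weakest against 4.19 at Klrb1b and 2.86 at Fosb. Dad1 at 1.57 and Tex14 at 1.93 were close to Per1 in this ratio.

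**Figure D3:**
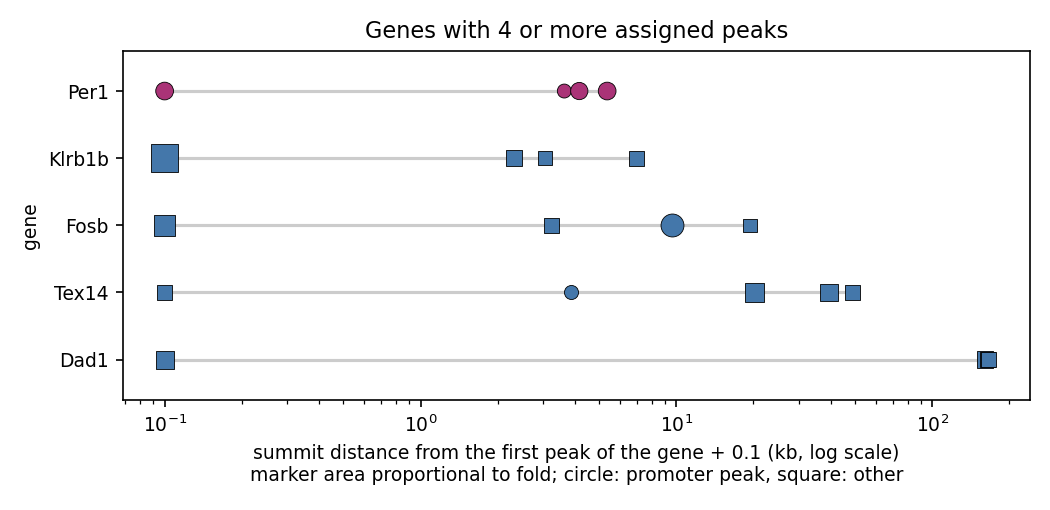
Summit positions of the peaks of 5 genes with 4 or more assigned peaks, as distance in kb from the first peak of the gene plus 0.1 on a log scale, ordered by span. Marker area is proportional to fold, circles are promoter peaks and squares others. Per1 has the shortest span and circles alone.

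Nr1d1, the gene for the nuclear receptor REV-ERB alpha, had 1 peak, also on chromosome 11. It lay at chr11:98773812-98774037, in intron 1 of 7, with its summit 1345 bp downstream of the annotated start and thus outside the promoter window. The fold was 6.73 (3.44 to 12.2) from 9 tags on a background of 0.485 tags, with a -log10 q of 5.57. That value is at rank 636 of 1404, near the middle of the list, and its interval overlaps those of all Per1 peaks. Thra, the gene for thyroid hormone receptor alpha, which overlaps the 3' end of Nr1d1, ended 4.81 kb from the peak, and the noncoding gene Gm31862 began 1.37 kb from it on the other side. The gene table placed the summit within Nr1d1 alone.

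The activating limb of the loop had no assigned peak. For Arntl, 136 kb long on chromosome 7, the nearest summit of the list was 858 kb away, and for Clock, on chromosome 5, it was 69.4 kb away and assigned to Srd5a3, a steroid reductase gene, at 5.90-fold. Of the Per and Cry repressors other than Per1, Per2, Per3, Cry1 and Cry2 had none either. The nearest summit was 605 kb from Per2, 214 kb from Cry1, 72.4 kb from Per3 and 28.3 kb from Cry2. The one near Per3 belonged to Tnfrsf9, the gene for the costimulatory receptor 4-1BB, at 7.33-fold (3.75 to 13.3). The one near Cry2 belonged to Pex16, a peroxisome assembly gene, at 4.41-fold (2.02 to 8.87). Nr1d2, the relative of Nr1d1, had its nearest summit 1935 kb away, and Dbp, a PAR bZIP output factor, 104 kb away. These distances run from the gene body to the summit. Around Per1 the nearest peak of another gene was that of Aloxe3, a lipoxygenase gene, at 6.91-fold (3.99 to 11.3), 29.3 kb from the start of the gene table, and around Nr1d1 it was that of Psmd3, a proteasome subunit gene, at 5.53-fold, 92.9 kb from the start. A gene without a peak is a gene without a called peak at this depth: the least summit of the list held 4 tags, the median 8, and a peak on the lowest background of 0.186 tags had at least 4.22-fold.

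The share of clock genes with a peak was 20.0% (2 of 10), where 5.38% of all protein-coding genes had one. Per1 was chosen for its peaks, so nothing is read from this share. For promoter peaks it was 1 of 10 genes, Per1, against 3.79% of protein-coding genes. Over the 5 peaks the median fold was 7.61, and over the 1399 other peaks it was 6.44. The difference of 0.24 in log2 units rests on Per1, as the Nr1d1 peak alone differed by 0.065. By tags the difference was 0.17, by -log10 q 0.61 and with the strongest peak of each gene 0.17, of the same sign. The sign turned in the stricter peak sets, where the filter acts on the strength compared. There it was -0.039 at or above the median -log10 q and -0.043 above the median fold. These 5 peaks were selected with Per1 in view, so the values are a description without a test.

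The wider clock list of 37 genes holds further receptors, modifiers and input and output factors of the loop. Of these, 10 had an assigned peak, 27.0%, against 5.38% of protein-coding genes, and 8 had a promoter peak, 21.6% against 3.79%. No test was made of this list, which was drawn up with earlier results of these data known. Its 11 peaks had a median fold of 5.38, below the 6.44 of all peaks, and 2 of the 11 were above that median. With only the peaks whose -log10 q reached the median, the count was 3 genes, Csnk1d, Rora and Tef, or 8.11% against 2.89% of protein-coding genes, and among peaks above the median fold it was 2, Csnk1d and Rora, or 5.41% against 2.73%.

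Enzymes that modify clock proteins were among the 10 genes. Csnk1d, the gene for casein kinase 1 delta, which phosphorylates PER proteins, had a peak at chr11:120991092-120991299 that reached its start, with 7.89-fold (4.04 to 14.3). Gsk3b, a kinase gene, had 5.41-fold (2.77 to 9.78) over its start, and Huwe1, a ubiquitin ligase gene, 5.90-fold (2.70 to 11.9) over its start. All 3 of these peaks were promoter peaks, and their intervals overlapped.

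Among the transcription factors of the wider list, the strongest peak was that of Rora, an activator of Arntl, at 9.66-fold (5.22 to 16.6), in intron 1 of 10 and 161 kb upstream of the transcript start it was assigned to. The repressor gene Bhlhe40 (DEC1) had a peak at 4.83-fold (2.11 to 10.2, 5 tags). Its summit was 428 bp and its near edge 301 bp upstream of the start. The peak credited to Nfil3 had its near edge 76.0 kb upstream, at 5.06-fold (2.21 to 10.7, 5 tags). Nfil3 encodes a bZIP repressor that opposes DBP on D-boxes and is also needed for NK cells. By nearest gene body, the Nfil3 peak fell to the gene Gm33424 and the Bhlhe40 peak to 0610040F04Rik, while the other 9 peaks of the list stayed with their genes. Tef, a PAR bZIP relative of Dbp, had a peak with 17 tags, the most of any clock peak, on a background of 2.34 tags, which gave 5.38-fold (3.26 to 8.44).

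The input factors of the cAMP pathway had peaks too. Creb1, the gene for the factor that binds cAMP response elements, had a promoter peak of 717 bp at 5.05-fold (2.41 to 9.73), which covered all 300 bases of its RefSeq window. Crem, its relative, had peaks at 2 starts, of 4.35-fold (2.35 to 7.50) and 5.05-fold (2.41 to 9.73). All 3 peaks lay under the lower quartile of the list's folds.

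**Figure D4:**
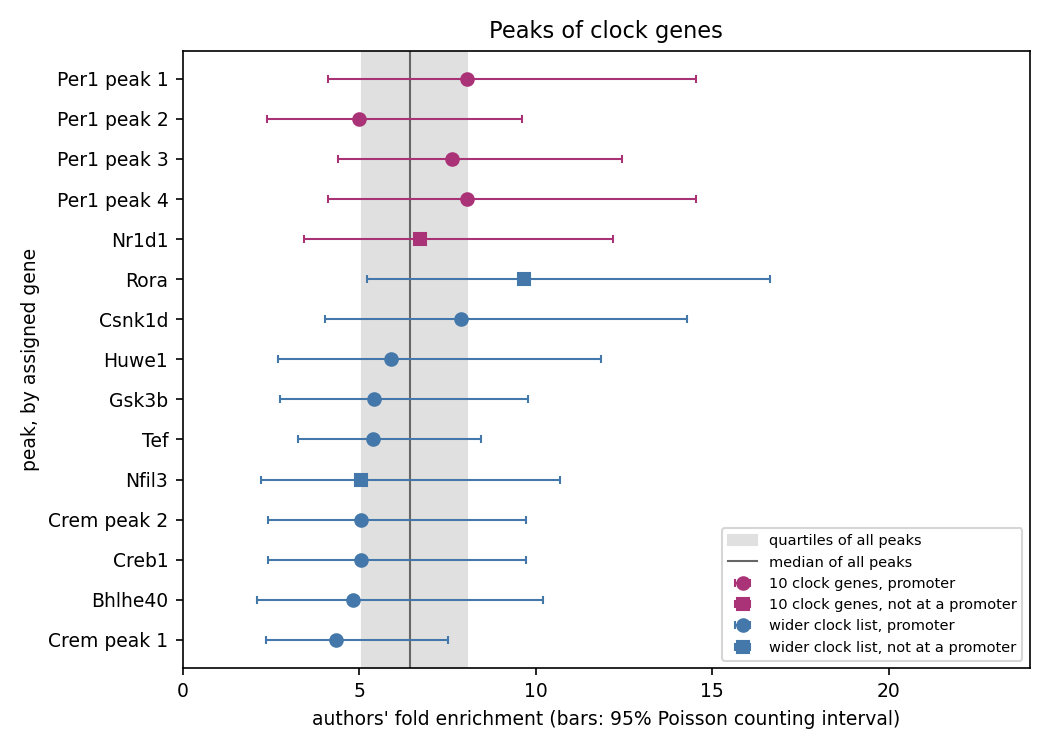
The authors' fold enrichment of 15 peaks assigned to the 10 clock genes and to the wider clock list, with 95% Poisson counting intervals. The line and band give the median and quartiles of all 1404 peaks. The Per1 peaks reach 8.05-fold, most peaks of the wider list lie below the median of 6.44, and the intervals of all 15 overlap.

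The promoter windows were searched on both strands for the E-box and its variant, the D-box, the cAMP response element, the Ikaros family core, the AP-1 motif and the CArG box. In each case a match is only a match of letters. The first Per1 window, that of the second start, held 1 E-box, CACGTG, whose first base was 166 bp upstream of that start. Of all 32851 windows, 7.15% held one. It also held 1 D-box, TTATGNAA, with its first base 24 bp upstream (3.38% of windows) and 1 match to TGACG, the core of the cAMP response element, 246 bp upstream (20.8% of windows). The second Per1 window, that of the third start, held 1 such core, 132 bp upstream, and 2 matches to the Ikaros family core GGGAA, which 62.7% of windows hold. The first window held no GGGAA, and no full cAMP response element, TGACGTCA, no E-box variant CACGTT, no AP-1 motif TGANTCA and no CArG box was in either. None of these matches overlapped a peak. The peaks themselves extend past the windows, and the bases there were not searched.

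The windows of Cry1 and Nr1d1 are shown for comparison, as genes of the loop whose window lay under no peak. Capitals here mark the E-box and its variant CACGTT, which reads AACGTG on the other strand.
Cry1, chr10:85185005-85185304, minus strand: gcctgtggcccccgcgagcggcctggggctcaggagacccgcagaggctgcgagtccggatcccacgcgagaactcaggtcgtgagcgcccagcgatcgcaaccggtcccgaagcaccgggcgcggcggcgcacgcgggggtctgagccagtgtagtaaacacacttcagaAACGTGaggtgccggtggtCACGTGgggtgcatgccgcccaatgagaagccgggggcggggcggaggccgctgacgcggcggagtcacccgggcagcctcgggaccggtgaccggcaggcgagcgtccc
Nr1d1, chr11:98775328-98775627, minus strand: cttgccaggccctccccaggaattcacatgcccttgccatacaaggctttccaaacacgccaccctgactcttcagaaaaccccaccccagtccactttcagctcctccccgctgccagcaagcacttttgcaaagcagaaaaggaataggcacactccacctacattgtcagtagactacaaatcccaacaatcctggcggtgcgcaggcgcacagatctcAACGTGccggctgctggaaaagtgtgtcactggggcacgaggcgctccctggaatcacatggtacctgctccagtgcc
Cry1 held 1 E-box, from 60 bp upstream, and 1 variant, from 79 bp upstream. Nr1d1 held 1 variant, from 28 bp upstream, and no E-box, and Cry2 held 1 variant. Per3 held 2 D-box matches. The windows of Clock, Arntl, Nr1d2 and Dbp held none of these 3 motifs, whereas GGGAA was found in windows of Clock, Arntl, Cry2 and Nr1d2, which had no assigned peak. In the wider list, 1 GGGAA match at Gsk3b and 2 at Creb1 lay under a peak.

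A peak did lie over an E-box at Tef. The second Tef window, shown for this reason, had 144 bases under the peak, and its E-box, with its first base 138 bp upstream of the start of that window, was among them. Capitals mark the bases under the peak, in which the E-box reads CACGTG.
Tef, chr15:81811164-81811463, plus strand: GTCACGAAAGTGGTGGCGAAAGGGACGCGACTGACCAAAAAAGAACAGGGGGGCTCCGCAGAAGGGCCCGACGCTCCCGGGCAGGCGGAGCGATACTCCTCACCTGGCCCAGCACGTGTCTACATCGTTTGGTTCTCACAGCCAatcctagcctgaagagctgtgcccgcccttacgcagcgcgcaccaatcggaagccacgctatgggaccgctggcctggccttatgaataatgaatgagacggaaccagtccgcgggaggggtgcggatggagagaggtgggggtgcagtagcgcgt
For the 845 windows of the table that a peak overlapped, the share with a motif was 10.9% for the E-box against 7.15% of all windows, 7.10% against 4.68% for the variant CACGTT, 42.7% against 20.8% for TGACG and 3.91% against 1.79% for TGACGTCA. It was 64.4% against 62.7% for GGGAA and 1.54% against 1.63% for the CArG box. It was lower for the D-box, 1.89% against 3.38%, and for the AP-1 motif, 4.50% against 7.81%. These shares were not tested, and base composition and position of the windows were not matched.

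As a check of the cell type, a peak list tells which genes carried a peak and not which were expressed. Of 10 NK marker genes, 3 had a peak, Klrb1c, Gzmb and Il2rb. Of 6 T cell markers Cd5 had one, and 0 of 4 B cell and 0 of 4 myeloid markers had one. With 5.38% of all protein-coding genes carrying a peak, lists of this size say nothing about which cells were present.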

How the data were processed

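CUT&RUN with an Aiolos antibody and without a primary antibody was performed in 1 library each, and the deposited peak list was the data used here. Per the submitters' processing notes, the build was mm10 and the tools were Bowtie2, SAMtools, Picard and MACS2, named without their order. The title of the library without primary antibody marks it as input. How duplicates were filtered, which q cutoff applied and whether that library served as control in the peak calling is not stated in the sources used here. Depth is given here as tags at each summit.

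The signal value of a peak, per the file headers, is taken here as the authors' fold enrichment, a ratio of summit tags plus 1 to background plus 1. The authors also deposited the -log10 of the p-value and q-value, and a score equal to the whole part of 10 times the -log10 q in 1404 of 1404 peaks. Tags and background were solved from the fold and the Poisson p-value of each peak, leaving a misfit in -log10 p of no more than 1.75e-05, by code tested on simulated data. The counting intervals take the background as fixed and leave out its error. Duplicates of 1 molecule would also make them too narrow. A promoter peak has its centre within 1000 bp of the annotated start.

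The clock genes and all lists were chosen with earlier results of these data known. The named genes are all 10 clock genes, the wider-list genes with a peak, genes with at least as many peaks as Per1, genes within 10 kb of a clock peak, and genes with other peaks within 100 kb of a clock gene start. The genes of the nearest peaks beyond that limit, Srd5a3 and Tnfrsf9, were named after their values were seen. Some genes that the rule names are left out of the text without replacement. Promoter sequences are from RefSeq (GRCm38.p6). No test was made, since there is 1 library per group. Alternatives were stricter peak sets, merging within 500 bp, peaks within 10000 bp of a start, the nearest gene, promoter windows of 500 and 3000 bp, and tags or -log10 q in place of fold. Python 3.11.15, pandas 2.3.3 and SciPy 1.17.1 were used.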

Additional observations from a re-analysis of the deposited data

How the results depend on the processing

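The count of 2 clock genes with a peak was the same in all 5 alternatives that were run on it, and the 4 Per1 peaks became 3 with either stricter peak set or with peaks merged within 500 bp. The wider clock list went from 10 genes to 3 at or above the median -log10 q and to 2 above the median fold. Over all protein-coding genes the count went from 1178 to 632 and to 597. Both stricter sets hold fewer peaks by construction, and 2 of the 11 wider-list peaks were above the median fold. The log2 difference in median between clock peaks and the others was 0.24 by fold, 0.61 by -log10 q and 0.065 without the Per1 peaks, and turned to -0.039 at or above the median -log10 q and -0.043 above the median fold, where the filter acts on the strength compared. The strongest Per1 peak ranked 345 by fold and 153 by tags, since a different peak leads. Depth limits all single folds: the Per1 summits held 7 to 14 tags. No paired analysis was possible because each group has a single library.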
